A study of Mus musculus with 6 samples.

Results

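The endothelial marker genes Cdh5, Kdr, Egfl7, Emcn, Pecam1, Angpt2 and Eng were followed in cultures of primary mouse dermal fibroblasts. They were picked by symbol, and 7 of the 7 had a row among the 13706 genes of the expression table and passed the filter on low values, which left 13648 genes to test. The study asked what the loss of YAP and TAZ, coactivators of transcription restrained by the Hippo pathway and encoded by Yap1 and Wwtr1, changes in these cells. Of 6 libraries, 2 came from YTcKO+H151 cells, 2 from YTcKO cells and 2 from Control cells. The YTcKO+H151 and YTcKO cells carried Yap1 fl/fl, Wwtr1 fl/fl and R26-CAG-CreER, a tamoxifen-dependent Cre driven from the ROSA26 locus, which is active in most cell types. Control cells carried Yap1 fl/fl and Wwtr1 fl/fl without Cre. All 3 groups received 1 µM 4-hydroxytamoxifen for 72 hr, and the YTcKO+H151 cells also 1 µM H-151, an inhibitor of STING, the adaptor that passes on the sensing of cytosolic DNA. Control and YTcKO cells therefore differ in active Cre as well as in both deleted genes, and the 2 cannot be told apart.

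Endothelial cells line blood and lymph vessels, and skin taken for fibroblast culture contains them. Cdh5 (VE-cadherin) and Pecam1 (CD31) hold endothelial cells to each other, and Emcn (endomucin) is a sialoglycoprotein of capillary and venous endothelium. Egfl7 and Angpt2 are secreted by endothelial cells: Egfl7 is a matrix-bound regulator of vessel formation, and Angpt2 is a ligand of the receptor Tek that in many settings opposes Angpt1. Kdr is the main signalling receptor for Vegfa on endothelium, and Eng (endoglin) is a co-receptor of the BMP and TGF-beta family. Eng is also made by fibroblasts and other mesenchymal cells, and Pecam1 by leukocytes and platelets.

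Libraries were made with QuantSeq, which reads 3′ ends of polyadenylated RNA, and the reads summed over genes were 14630747 and 15308100 in YTcKO+H151, 12444986 and 12695418 in YTcKO, and 13505502 and 13460716 in Control. Levels are scaled CPM, read counts scaled to an effective library size, and 1 read was worth 0.0625 to 0.0871 scaled CPM. The targeted transcript Wwtr1 stood at 3.07 and 4.00 scaled CPM in YTcKO+H151, 4.79 and 5.03 in YTcKO, and 213 and 218 in Control. Yap1 stood at 45.3 and 42.4, 66.4 and 68.3, and 122 and 128 scaled CPM in the same 3 groups. Nothing in the labels tells whether both libraries of a group stem from different cultures or mice. The p-values thus reflect the spread between these libraries alone, which may be technical.

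The labelled cell type was borne out by the fibroblast genes, whose 10 listed members summed to 27348 and 25537 scaled CPM in YTcKO+H151, 39204 and 41244 in YTcKO, and 34304 and 34866 in Control. The 6 endothelial markers other than Eng summed to 25.5 and 24.8 scaled CPM in YTcKO+H151, 12.4 and 12.0 in YTcKO, and 22.6 and 20.0 in Control. Over the 6 libraries together Emcn had 100 reads, Cdh5 144, Pecam1 213, Angpt2 340, Kdr 413, Egfl7 455 and Eng 3585. Most of these genes were thus close to the lower end of what the libraries could measure. In bulk cultures, fewer cells of a type and less RNA per cell cannot be told apart, and the data do not say which cells made these transcripts.

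The comparison of YTcKO with Control split the markers. Pecam1, Emcn, Cdh5, Angpt2 and Egfl7 fell in YTcKO, Kdr rose, and Eng did not pass the test. On the linear scale Pecam1, Emcn, Angpt2 and Cdh5 stood at 0.108 to 0.187 of their Control level. Of the 7 markers, 5 were lower and 1 was higher at an adjusted p under 0.05 (limma on log2(scaled CPM + 1) with Benjamini-Hochberg adjustment), where 14.2% of all genes were lower and 18.2% were higher, 32.4% in either direction. Without overlap between the groups, 5 of the 7 were lower and 2 higher, against 33.5% and 33.4% of all genes. The median difference of the 7 was -1.14 on the log2(scaled CPM + 1) scale, and that of all genes was -0.01. Pecam1, Emcn and Cdh5 were under 1 scaled CPM in both YTcKO libraries and passed the filter on low values through the other groups. Angpt2 reached 1 scaled CPM in only 1 YTcKO library (1.02) and also needed the other groups to pass. At such levels a gene is tested only if another group is higher, so the falls of these genes are partly built in. The counts are therefore not a test of the markers against all genes.

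**Figure D1:**
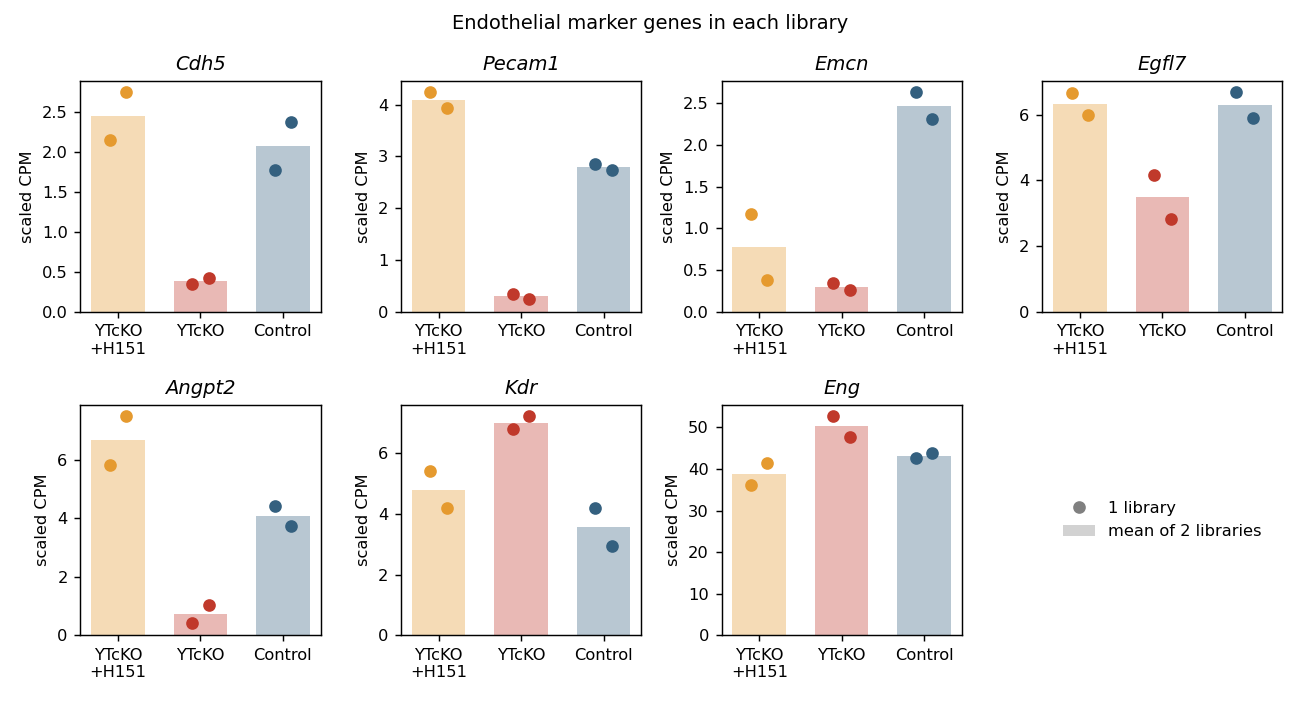
Scaled CPM (linear y axis from 0, a scale of its own for each gene) of the 7 endothelial markers in YTcKO+H151, YTcKO and Control. Each point is 1 library and each bar the mean of 2 libraries: Cdh5, Pecam1, Emcn and Angpt2 lie between 0.255 and 1.02 scaled CPM in YTcKO, whereas Kdr and Eng are highest there.

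Among the junction and surface genes, Pecam1 (ENSMUSG00000020717.19, chromosome 11, 106654217 to 106750628, minus strand, GRCm38) had 0.348 and 0.255 scaled CPM in YTcKO, against 2.85 and 2.74 in Control. These values rest on 4 and 3 reads in YTcKO and on 40 and 38 in Control. The log2 difference was -1.54 ± 0.20 (SE; adjusted p = 1.40e-05, limma). The added 1 understates changes at such levels: on the linear scale YTcKO stood at 0.108 of Control (95% counting interval 0.0420 to 0.233). Such intervals cover counting error and no spread between cultures.

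Emcn (ENSMUSG00000054690.17, chromosome 3, 137341067 to 137432185, plus strand) had 0.348 and 0.255 scaled CPM in YTcKO, against 2.64 and 2.31 in Control. Its reads were 4 and 3 in YTcKO, and 37 and 32 in Control. Both YTcKO libraries lay far below both Control libraries, with a log2 difference of -1.41 ± 0.25 (adjusted p = 0.000278, limma) and a linear ratio of 0.122 (0.0473 to 0.265). Cdh5 (ENSMUSG00000031871.9, chromosome 8, 104101625 to 104144511, plus strand) had 0.348 and 0.426 scaled CPM in YTcKO, against 1.78 and 2.38 in Control. The groups did not overlap, and the log2 difference was -1.14 ± 0.22 (adjusted p = 0.000620, limma), a linear ratio of 0.187 (0.0812 to 0.379).

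Of the secreted factors, Angpt2 (ENSMUSG00000031465.6, chromosome 8, 18690263 to 18741562, minus strand) had 0.435 and 1.02 scaled CPM in YTcKO, against 4.42 and 3.75 in Control. The 2 YTcKO libraries differed from each other, with 5 and 12 reads, and both lay below the 62 and 52 reads of Control. The log2 difference was -1.57 ± 0.22 (adjusted p = 2.73e-05, limma), a linear ratio of 0.179 (0.101 to 0.300). Egfl7 (ENSMUSG00000026921.18, chromosome 2, 26580014 to 26593120, plus strand) had 4.18 and 2.81 scaled CPM in YTcKO, against 6.69 and 5.91 in Control. Its fall was smaller, at -0.71 ± 0.19 (adjusted p = 0.00842, limma) and a linear ratio of 0.553 (0.420 to 0.724). It passed neither without Control replicate 1 (adjusted p = 0.0719) nor without YTcKO replicate 2 (adjusted p = 0.119). Whether the counting used strand is not given in the sources used here, and exons of Egfl7 overlap those of Agpat2 on the opposite strand. Agpat2 averaged 46.1 scaled CPM in YTcKO and 42.4 in Control.

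Of the receptors, Kdr rose and Eng did not pass. Kdr (ENSMUSG00000062960.10, chromosome 5, 75932827 to 75978458, minus strand) had 6.79 and 7.24 scaled CPM in YTcKO, against 4.201 and 2.96 in Control. The groups did not overlap, and the log2 difference was 0.82 ± 0.19 (adjusted p = 0.00363, limma), a linear ratio of 1.96 (1.52 to 2.54). This call was lost without Control replicate 2 (0.62, adjusted p = 0.0626). Eng (ENSMUSG00000026814.16, chromosome 2, 32646595 to 32682669, plus strand) had 52.8 and 47.6 scaled CPM in YTcKO, against 42.7 and 43.7 in Control. Both YTcKO libraries were above both Control libraries, but the difference of 0.21 ± 0.09 did not pass (adjusted p = 0.104, limma; 95% interval 0.01 to 0.41).

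Other endothelial genes did not move one way. In YTcKO against Control, 18.2% of all genes were higher and 14.2% lower, the shares to set beside this and each later list. Of 40 further markers listed, 24 were in the table, and 6 of these rose and 5 fell in YTcKO against Control, with a median of -0.13. With 1 library left out, 3 to 6 rose and 1 to 5 fell. Those that fell included Plvap, a protein of endothelial diaphragms (5.14 and 4.34 scaled CPM in YTcKO, 7.69 and 8.72 in Control; -0.68 ± 0.16, adjusted p = 0.00338, limma). Cd34 fell as well (0.871 and 1.11 in YTcKO, 3.42 and 2.38 in Control; adjusted p = 0.00299, limma, and 0.0512 without Control replicate 1). Myct1 and Adgrl4 were under 1 scaled CPM in both YTcKO libraries, and Cd34 in 1 of them. The limit set by the filter holds for these falls too. Myct1 had 0 reads in YTcKO and 35 in Control, at least 9.71-fold lower in YTcKO when the group is set to a minimum of 3 reads. Its call was lost without Control replicate 1 (adjusted p = 0.0520). The others of the 5 were Adgrl4 and Stab1, whose calls were also lost without that library (adjusted p = 0.115 and 0.222), and Plvap, Myct1, Adgrl4 and Stab1 were named after their values were seen.

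The rises were led by receptors. Calcrl, which binds adrenomedullin, stood at 23.8 and 22.1 scaled CPM in YTcKO and 8.33 and 8.94 in Control (1.31 ± 0.14, adjusted p = 1.35e-06, limma). Flt1, the Vegfa receptor that acts largely as a trap, stood at 8.01 and 12.6 scaled CPM in YTcKO and 3.92 and 3.24 in Control (1.28 ± 0.21, adjusted p = 0.000167, limma). Sparcl1, a secreted matrix protein, rose as well (0.73 ± 0.14, adjusted p = 0.000948, limma). The other 3 rises, of Erg, S1pr1 and Tal1 (chosen with their values in view), were each lost without Control replicate 2 (adjusted p = 0.262, 0.167 and 0.196) and without YTcKO replicate 1 (adjusted p = 0.193, 0.0587 and 0.243). Those of Erg and S1pr1 were also lost without YTcKO replicate 2 (adjusted p = 0.116 and 0.296) and under total-count scaling (adjusted p = 0.0922 and 0.139), and that of S1pr1 without Control replicate 1 (adjusted p = 0.106). Tal1 was under 1 scaled CPM in both Control libraries, so the limit set by the filter holds for its rise. Cd93, the member of this list with the highest mean, stood at 14.5 and 16.6 scaled CPM in YTcKO and 20.4 and 16.9 in Control (adjusted p = 0.219, limma), without overlap between the groups. The other 16 listed markers, Tie1, Cldn5 and Sox17 among them, had no row in the expression table, whose filters are not given in the sources used here.

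Ligands and receptors around Kdr and Angpt2 also differed. Of 15 measured genes of the VEGF and angiopoietin system, 5 rose and 7 fell in YTcKO against Control, with a median of -0.25. The rise of Vegfb and the falls of Vegfa and Svep1, named after their values were seen, were lost without the variance trend. Vegfa was also lost with a pseudocount of 0.25, the mean filter, the replicate block, edgeR and DESeq2, and when any YTcKO or Control library was left out. Vegfb was also lost under total-count and quantile scaling, and when YTcKO replicate 1 or either Control library was left out. Svep1 was also lost with DESeq2, and when Control replicate 1 or either YTcKO library was left out. Adm, the ligand of Calcrl, fell to 35.7 and 35.4 scaled CPM in YTcKO, against 186 and 159 in Control (-2.24 ± 0.09, adjusted p = 4.81e-12, limma). The lymphangiogenic ligand Vegfd fell to 125 and 127 scaled CPM, against 254 and 234 in Control (-0.95 ± 0.07, adjusted p = 1.15e-08, limma), and Apln, the ligand of the apelin receptor, fell by 1.47 ± 0.16 on the log2(scaled CPM + 1) scale. The angiogenesis inhibitor Thbs1, with the highest mean of the list, fell by 0.97 ± 0.09. Angpt1, which activates the receptor that Angpt2 also binds, was among those that rose (50.3 and 43.9 scaled CPM in YTcKO, 27.4 and 30.6 in Control; 0.68 ± 0.11, adjusted p = 0.000107, limma), as was the Flt1 ligand Pgf (0.97 ± 0.20, adjusted p = 0.00125, limma). Both were named after their values were seen. That receptor itself, Tek, stood at 1.22 and 1.02 scaled CPM in YTcKO and 1.35 and 1.59 in Control, with no call (adjusted p = 0.478, limma).

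Around Eng, 0 of 17 genes of the endoglin receptor complex and its BMP and TGF-beta readouts rose and 9 fell in YTcKO against Control, with a median of -0.37. The inhibitory Smad6 fell to 13.1 and 10.7 scaled CPM in YTcKO, against 28.6 and 28.9 in Control (-1.21 ± 0.13, adjusted p = 1.81e-06, limma). Id1, a classical BMP target, fell to 16.8 and 15.5 scaled CPM, against 36.2 and 32.9 in Control (-1.05 ± 0.12, adjusted p = 4.32e-06, limma). Bmp4 and Id2 fell too, by 1.32 ± 0.19 and 0.49 ± 0.07. Id3, with the highest mean of the list, stood at 353 and 404 scaled CPM in YTcKO and 426 and 420.4 in Control (adjusted p = 0.0914, limma) and passed under median, total-count and quantile scaling (adjusted p = 0.0225, 0.00189 and 0.000986). Acvrl1, the type I receptor that works with Eng on endothelium, fell by 0.37 ± 0.09 (adjusted p = 0.00285, limma, and 0.0547 without YTcKO replicate 1) and was named after its values were seen.

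Of 9 genes of the cadherin-catenin junction, 2 (Ctnnb1 and Cdh11) rose and 1 (Cdh2) fell in YTcKO. Both counts were near the shares of all genes, 18.2% higher and 14.2% lower, and are not a result about the list. Ctnnb1, beta-catenin, which binds Cdh5 and other cadherins, stood at 910 and 956 scaled CPM in YTcKO and 699 and 684 in Control (0.43 ± 0.06, adjusted p = 6.57e-05, limma). Cdh2, N-cadherin, fell by 0.29 ± 0.11 (adjusted p = 0.0461, limma), a call that leaving out either YTcKO or either Control library ended (adjusted p = 0.0922 to 0.239).

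**Figure D2:**
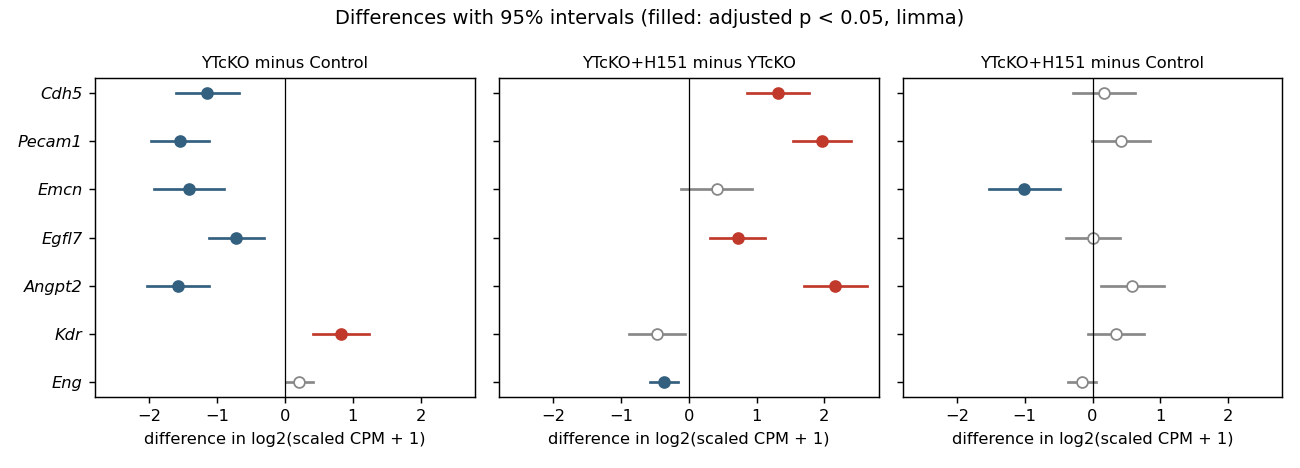
Differences of the 7 endothelial markers in log2(scaled CPM + 1) (x axis) for the 3 comparisons, with 95% intervals from limma as lines. Filled points passed an adjusted p of 0.05: 5 lower (blue) and 1 higher (red) in YTcKO minus Control, 4 higher and 1 lower in YTcKO+H151 minus YTcKO, and 1 lower in YTcKO+H151 minus Control.

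The 300 bases around the start sites of these genes (250 before and 50 after) were read from RefSeq promoter windows of the GRCm38.p6 build, where Kdr, Emcn and Eng had 1 window each and Egfl7 had 3. Cdh5, Pecam1 and Angpt2 had no entry. They are shown because Emcn fell and Kdr rose in YTcKO. Capitals mark the ETS letters CCGGAA or CAGGAA, the core bound by the ETS family that includes endothelial regulators, and the letters GGAATG, the core bound by TEAD factors, the DNA-binding partners of YAP and TAZ, on either strand. The windows are Emcn chr3:137340828-137341127 (plus strand), Kdr chr5:75978406-75978705 (minus strand) and Eng chr2:32646345-32646644 (plus strand), each printed 5′ to 3′ along its gene.
Emcn: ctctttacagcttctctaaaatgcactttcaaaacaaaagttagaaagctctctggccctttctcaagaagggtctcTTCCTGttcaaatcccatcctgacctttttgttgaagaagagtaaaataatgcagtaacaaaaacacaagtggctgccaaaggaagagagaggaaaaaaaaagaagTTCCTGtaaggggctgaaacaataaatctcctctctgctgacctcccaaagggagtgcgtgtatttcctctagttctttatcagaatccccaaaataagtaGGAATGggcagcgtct
Kdr: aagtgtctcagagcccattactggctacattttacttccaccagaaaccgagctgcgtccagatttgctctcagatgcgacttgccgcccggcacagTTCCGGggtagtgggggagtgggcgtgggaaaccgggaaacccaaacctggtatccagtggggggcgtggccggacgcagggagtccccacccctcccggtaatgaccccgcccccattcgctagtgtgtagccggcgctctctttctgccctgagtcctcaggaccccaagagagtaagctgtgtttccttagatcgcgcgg
Eng: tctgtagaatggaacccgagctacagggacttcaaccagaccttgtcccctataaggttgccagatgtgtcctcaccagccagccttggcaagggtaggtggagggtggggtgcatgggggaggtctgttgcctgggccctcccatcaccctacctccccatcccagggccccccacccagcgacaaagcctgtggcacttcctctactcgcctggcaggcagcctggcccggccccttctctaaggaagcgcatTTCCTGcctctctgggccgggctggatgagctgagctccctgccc
The letters GGAATG stood in the Emcn window alone among the 6 windows, starting at base 35 of the transcript, and in 14.7% of all 32851 promoter windows and 12.3% of the 13163 windows of tested genes. CAGGAA stood in 4 of the 6 windows, those of Emcn, Eng and 2 of Egfl7, and in 30.6% of all windows and 26.7% of those of tested genes. CCGGAA stood in 1, that of Kdr, starting 153 bases before the start site, and in 14.9% of all windows and 26.4% of those of tested genes. The interferon-stimulated response element, the GATA letters AGATAA, the FOX letters TAAACA and the CArG box of serum response factor were in 0 of the 6 windows, in 3.44%, 11.2%, 13.4% and 1.63% of all windows, and in 3.15%, 6.16%, 8.65% and 1.28% of those of tested genes. A match is a description of letters and not evidence of binding, and ETS and TEAD letters share the bases GGAA and can overlap.

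The comparison of YTcKO+H151 with YTcKO asked what H-151 changes in YTcKO cells. Yap1 transcript remained in YTcKO and was lower in YTcKO+H151, by 0.61 on the log2(scaled CPM + 1) scale. The groups thus differed in a targeted transcript as well as in H-151, and its part in the results was not tested. The comparison shares the YTcKO libraries with the first, so a low or high YTcKO value enters both. The values are set side by side. Pecam1, Angpt2, Cdh5 and Egfl7 rose, Eng fell, and Kdr and Emcn did not pass. The 4 higher and 1 lower of 7 compare with 19.4% and 21.4% of all genes, 40.8% in either direction (adjusted p under 0.05, limma). Without overlap between the groups, 5 of the 7 were higher and 2 lower, against 35.5% and 33.7% of all genes. The median difference of the 7 was 0.72, and that of all genes 0.02. The limit set by the filter holds here too, for the rises of Pecam1, Cdh5 and Angpt2 from YTcKO.

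Pecam1 had 4.25 and 3.94 scaled CPM in YTcKO+H151 (65 and 63 reads), against 0.348 and 0.255 in YTcKO. It rose by 1.97 ± 0.20 on the log2(scaled CPM + 1) scale (adjusted p = 6.90e-07, limma), a linear ratio of 13.6 (95% counting interval 6.40 to 34.4). Angpt2 had 5.81 and 7.50 scaled CPM in YTcKO+H151 (89 and 120 reads), against 0.435 and 1.02 in YTcKO. Its difference was the largest of the 7 on the log2 scale, at 2.16 ± 0.22 (adjusted p = 5.92e-07, limma), and its linear ratio was 9.12 (5.56 to 15.96). Both genes also stood higher in the 2 YTcKO+H151 libraries than in the 2 Control libraries.

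Cdh5 had 2.16 and 2.75 scaled CPM in YTcKO+H151, against 0.348 and 0.426 in YTcKO, a rise of 1.31 ± 0.22 (adjusted p = 0.000138, limma) and a linear ratio of 6.35 (3.18 to 14.4). Egfl7 had 6.66 and 6.003 scaled CPM in YTcKO+H151, against 4.18 and 2.81 in YTcKO, a rise of 0.72 ± 0.19 (adjusted p = 0.00619, limma). The Egfl7 call was lost without YTcKO replicate 2 (0.50, adjusted p = 0.0926). Agpat2, whose exons overlap those of Egfl7, averaged 124 scaled CPM in YTcKO+H151 and 46.1 in YTcKO, and its part in the Egfl7 result was not tested.

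Emcn stood apart from these. It had 1.18 and 0.375 scaled CPM in YTcKO+H151, from 18 and 6 reads, against 0.348 and 0.255 in YTcKO. The difference of 0.41 ± 0.25 did not pass (adjusted p = 0.199, limma; 95% interval -0.11 to 0.93), and the linear ratio was 2.54 with a counting interval of 1.06 to 6.99. The value depended on 1 library: it was 0.08 without YTcKO+H151 replicate 1 and 0.74 (adjusted p = 0.0438) without YTcKO+H151 replicate 2.

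Eng fell in YTcKO+H151, with 36.1 and 41.3 scaled CPM against 52.8 and 47.6 in YTcKO (-0.37 ± 0.09, adjusted p = 0.00542, limma). This call was lost under total-count scaling (-0.19, adjusted p = 0.103) and without YTcKO replicate 1 (-0.29, adjusted p = 0.0890). Kdr had 5.42 and 4.19 scaled CPM in YTcKO+H151, against 6.79 and 7.24 in YTcKO. The groups did not overlap, and the difference of -0.47 ± 0.19 was near the threshold (adjusted p = 0.0625, limma).

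Of the 24 other endothelial markers, 10 rose and 5 fell in YTcKO+H151 against YTcKO, with a median of 0.35. Beside this and the later lists of the comparison stand 19.4% of all genes higher and 21.4% lower. Stab1, a scavenger receptor of sinusoidal endothelium and macrophages, stood at 27.9 and 20.3 scaled CPM in YTcKO+H151 and 6.18 and 3.66 in YTcKO (2.10 ± 0.22, adjusted p = 1.13e-06, limma). Sparcl1 rose by 1.52 ± 0.14, Plvap by 1.26 ± 0.16 and Cd93 by 1.20 ± 0.14. The genes that fell were Flt1, Calcrl, Erg, Ecscr and Ackr3, the last 3 named after their values were seen. Without YTcKO replicate 1 the calls of Erg, Ecscr and Ackr3 were lost (adjusted p = 0.139, 0.0756 and 0.0711). Without YTcKO replicate 2 those of Erg and Ackr3 were lost (adjusted p = 0.0782 and 0.0819), as they were without YTcKO+H151 replicate 2 (adjusted p = 0.232 and 0.0886). With 1 library left out, 2 to 5 of the list fell. Flt1 stood at 3.59 and 2.81 scaled CPM in YTcKO+H151 and 8.01 and 12.6 in YTcKO (-1.40 ± 0.21, adjusted p = 5.19e-05, limma), and Calcrl fell by 1.01 ± 0.14. Myct1 had 42 reads in YTcKO+H151 and 0 in YTcKO, at least 10.4-fold higher against the same minimum. The limit set by the filter holds for this rise too. Setting Myct1 to its bound left the list's median unchanged in this comparison and in YTcKO against Control. Sox7, a transcription factor of early endothelium named after its values were seen, had 18 and 17 reads in YTcKO+H151 and 2 and 1 in YTcKO, a linear ratio of 8.66 (2.73 to 44.0). Sox7 and Vwf, which also rose, reached 1 scaled CPM in the YTcKO+H151 libraries alone. They were tested only because that group was high, so their rises are partly built in.

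Of the 15 genes of the VEGF and angiopoietin system, 6 rose and 3 (Angpt1, Flt1 and Pgf) fell in YTcKO+H151 against YTcKO. The rises of Apln and Thbs1 were lost without the variance trend. That of Apln was also lost with a pseudocount of 4, quantile normalization, a fit of the 2 groups alone, the replicate block and DESeq2. Both rises were lost when either YTcKO library or YTcKO+H151 replicate 2 was left out, and that of Apln when either Control library was. Adm rose by 1.58 ± 0.09 and Vegfd by 0.58 ± 0.07, while Pgf fell by 2.34 ± 0.20 and Angpt1 by 1.13 ± 0.11. Pgf was under 1 scaled CPM in both YTcKO+H151 libraries, so the limit set by the filter holds for its fall. Of the 17 genes around endoglin, 7 rose and 3 (Bmpr2, Smad4 and Tgfbr2) fell, with Id1 at 1.34 ± 0.12, Id2 at 1.28 ± 0.07, Smad6 at 1.22 ± 0.13 and Smad9 at 1.22 ± 0.23. The falls of Bmpr2, Smad4 and Tgfbr2 were lost without YTcKO replicate 1 (adjusted p = 0.0677, 0.0530 and 0.0975), without YTcKO replicate 2 (adjusted p = 0.0607, 0.0559 and 0.182) and under total-count scaling (adjusted p = 0.436, 0.346 and 0.805). Tgfbr2 was also lost without YTcKO+H151 replicate 2 (adjusted p = 0.208) and changed sign under quantile normalization. Of the 9 junction genes, 1 (Afdn) rose and 4 (Cdh11, Ctnnb1, Ctnnd1 and Nectin2) fell, those of Afdn and Nectin2 being lost without YTcKO replicate 1 (adjusted p = 0.180 and 0.105). Members of these last groups beyond the 4 smallest p were named after their values were seen.

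Markers of other cells moved with H-151. Of 13 macrophage genes, 13 rose and 0 fell in YTcKO+H151 against YTcKO, and their summed level was 4138 and 3377 scaled CPM in YTcKO+H151, against 1638 and 1637 in YTcKO. In YTcKO against Control, 3 of the 13 rose and 2 fell, and the sum in Control was 1536 and 1319 scaled CPM. That count of rises was 1 to 6 with 1 library left out and 0 to 7 over the alternatives run. None of the 13 was at 0 in both libraries of a group. Of 6 leukocyte and platelet genes, 3 (Cd48, Pf4 and Ptprc) rose and 0 fell in YTcKO+H151 against YTcKO, with a summed level of 96.1 and 82.6 scaled CPM in YTcKO+H151, 63.0 and 60.6 in YTcKO, and 48.9 and 43.0 in Control. The Pf4 call was lost without either YTcKO library (adjusted p = 0.0740 and 0.0753) or YTcKO+H151 replicate 1 (adjusted p = 0.157). Ptprc, which marks leukocytes, stood at 48.0 and 44.0 scaled CPM in YTcKO+H151, 33.6 and 29.8 in YTcKO, and 22.6 and 19.9 in Control. Macrophages can carry Pecam1 and Stab1 transcripts and platelets Pecam1 transcripts, and the part of such cells in the H-151 results was not tested.

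**Figure D3:**
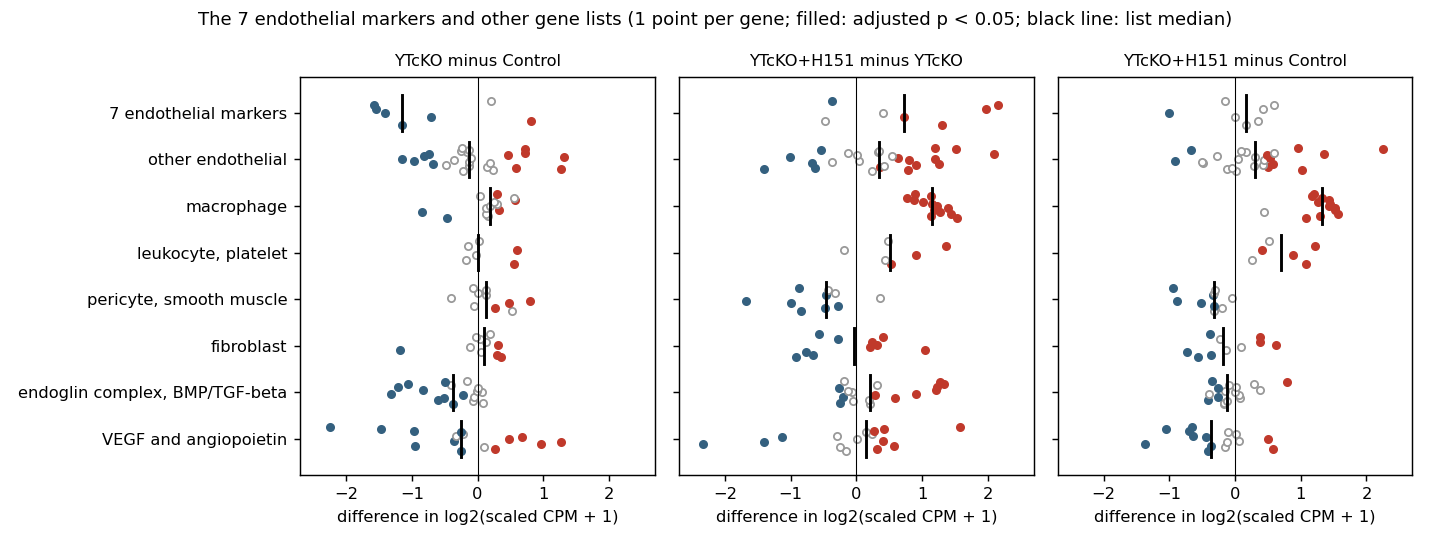
Differences in log2(scaled CPM + 1) (x axis) for each tested gene of 8 lists (rows) in the 3 comparisons. Points are genes, filled where the adjusted p was under 0.05 (red higher, blue lower), and black lines are list medians: that of the 7 endothelial markers is -1.14 in YTcKO minus Control and 0.72 in YTcKO+H151 minus YTcKO, and that of the macrophage genes is 0.19 and 1.15.

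The comparison of YTcKO+H151 with Control set side by side cells that differ in the targeted genes, in Cre and in H-151. No Control cells received H-151, so these cannot be told apart, and a difference is not what remained of the knockout. The comparison shares libraries with both others. Of the 7 markers, 0 were higher and 1, Emcn, was lower, where 11.5% of all genes were higher and 11.4% lower, 22.9% in either direction (adjusted p under 0.05, limma). Before adjustment, limma put 1 of the 7, Angpt2, past 0.05 as higher. At an adjusted p under 0.05, edgeR called 1 higher and DESeq2 0. Without overlap between the groups, 2 of the 7 were higher and 2 lower, against 29.5% and 29.5% of all genes. The median difference of the 7 was 0.17, and that of all genes was 0.00.

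Emcn had 1.18 and 0.375 scaled CPM in YTcKO+H151, against 2.64 and 2.31 in Control, a log2 difference of -1.003 ± 0.25 (adjusted p = 0.00697, limma) and a linear ratio of 0.310 (0.186 to 0.500). The call was lost without Control replicate 1 (adjusted p = 0.0569), without YTcKO+H151 replicate 2 (adjusted p = 0.101) and with DESeq2 on the recovered reads (adjusted p = 0.0623). Angpt2 had 5.81 and 7.50 scaled CPM in YTcKO+H151, against 4.42 and 3.75 in Control. Both YTcKO+H151 libraries lay above both Control libraries, and the difference was 0.59 ± 0.22, short of the threshold (adjusted p = 0.0643, limma; 95% interval 0.13 to 1.05). It passed with a pseudocount of 4, in a fit of the 2 groups alone, with edgeR and with a crossed replicate term. Pecam1 had 4.25 and 3.94 scaled CPM in YTcKO+H151, against 2.85 and 2.74 in Control, a difference of 0.42 ± 0.20 (adjusted p = 0.150, limma) that passed when the variance trend was dropped (adjusted p = 0.0278).

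Cdh5, Egfl7 and Kdr overlapped between YTcKO+H151 and Control. Their differences were 0.17 (95% interval -0.29 to 0.63), 0.01 (-0.40 to 0.41) and 0.35 (-0.06 to 0.76), and that of Eng, whose groups did not overlap, was -0.16 (-0.36 to 0.04). These intervals leave room for differences of either sign and are not a sign that the levels were equal. Across all genes, 11.5% were higher and 11.4% lower in YTcKO+H151 than in Control. Of the other 24 endothelial markers 8 were higher and 2 (Ackr3 and Cd34) lower in YTcKO+H151 than in Control, with a median of 0.30. With 1 library left out 4 to 7 were higher and 0 to 2 lower, and the calls of Ackr3 and Cd34 were both lost without Control replicate 1 (adjusted p = 0.0986 and 0.0892). Vwf, among the 8, reached 1 scaled CPM in the YTcKO+H151 libraries alone, so its call is partly built in. Sparcl1 stood at 28.9 and 26.9 scaled CPM in YTcKO+H151 and 4.99 and 5.19 in Control (2.25 ± 0.14, adjusted p = 1.99e-08, limma). Of the macrophage genes, 12 of 13 were higher and 0 lower.

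Across the 3 groups the order of the mean levels was not the same for all markers. Cdh5, Egfl7, Pecam1 and Angpt2 were highest in YTcKO+H151, then Control, then YTcKO, with an overlap between YTcKO+H151 and Control for Cdh5 and Egfl7. Emcn was highest in Control, then YTcKO+H151, then YTcKO. Kdr was highest in YTcKO, then YTcKO+H151, then Control, with an overlap between the last pair, and Eng was highest in YTcKO, then Control, then YTcKO+H151.

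Likeness of profiles was measured as the root mean square difference between log2(scaled CPM + 1) values centred on each gene's own mean over the 6 libraries. The added 1 shrinks the changes of markers at low levels. A gene named as alike can therefore change less than the marker on the linear scale. Among the 7, Pecam1 and Angpt2 were the closest pair (0.23), followed by Cdh5 and Pecam1 (0.31), and Kdr and Angpt2 the farthest (1.21). Among 10505 genes with a mean of at least 5 scaled CPM, those most like Pecam1 were Ptger4 (0.10), Trib2 (0.13) and Gas1 (0.15), and Gas1 was also among the 3 most like Angpt2 (0.23), after P2ry6 (0.17) and Lfng (0.21). Ptger4 averaged 37.1 scaled CPM in YTcKO+H151, 9.95 in YTcKO and 30.7 in Control, the same order as Pecam1. Pecam1 averaged 4.09, 0.30 and 2.79 scaled CPM in the same groups, a larger change on the linear scale. Those most like Cdh5 were Usp2 (0.098), Ston1 (0.098) and Slc5a3 (0.10), and the first after Egfl7 was Zfp64 (0.055). Those most like Emcn were Ism1 (0.15), Adamts1 (0.18) and Sdf2l1 (0.19), and Adamts1 averaged 208 scaled CPM in YTcKO+H151, 154 in YTcKO and 410 in Control. Those most like Kdr were Chd7 (0.064), Adcy4 (0.064) and Nr1d2 (0.069), and the first after Eng was Mcu (0.013). Flat profiles such as that of Eng have small differences from many genes, so these values rank genes within 1 marker and not between markers.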

How the data were processed

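The deposited table was made by the authors with STAR 2.5.3a, featureCounts and edgeR on the mm10 build, per the submitters' processing notes; annotation, strand setting and filters are not given in the sources used here. Its values are a scaled signal, CPM on an effective library size: the deposited columns sum to 955838 to 1083568, and in each 100% of values were whole multiples of 1 step within 0.0006 (wider in proportion for high values), so whole reads were recovered. The plan for plain CPM was kept.

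Values were transformed to log2(scaled CPM + 1), and genes with at least 1 in at least 2 libraries were fitted with limma 3.58.1 in R 4.3.3 (1 mean per group, 6 libraries, prior variance with a trend, 3 residual degrees of freedom and a median of 15.7 after moderation). P-values were adjusted over 13648 genes with the Benjamini-Hochberg method, with a threshold of 0.05. The fit was tested on simulated data. Linear ratios compare summed reads per group with exact 95% binomial intervals. Alternatives were other pseudocounts, filters and scalings, a fit of 2 groups, no variance trend, a replicate block, edgeR 4.0.16 and DESeq2 1.42.0 on recovered reads, and each library left out; a crossed block was added after seeing the data. Coordinates are from GENCODE M21 (GRCm38, the build of mm10). Named are the 7 markers, per list and comparison up to 4 members with the smallest adjusted p under the threshold and the 1 with the highest mean, and per marker the 3 genes most alike. The markers, lists and tests were chosen with earlier results of these data known, and not every gene the rule would name is named.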

Additional observations from a re-analysis of the deposited data

How the results depend on the processing

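Each difference of the 7 markers kept its sign under every alternative tried, except Egfl7 in YTcKO+H151 against Control (-0.024 under median scaling, -0.013 under quantile normalization, -0.071 without Control replicate 2 and -0.058 without YTcKO+H151 replicate 1, with -0.071 to 0.085 over the libraries left out). With a mean of at least 10 scaled CPM, the 7 left Eng alone, so 0 markers were lower and 0 higher in YTcKO against Control, 0 higher in YTcKO+H151 against YTcKO and 0 lower in YTcKO+H151 against Control. In YTcKO against Control, 2 markers were higher with the crossed replicate block and 0 to 1 with 1 library left out. In YTcKO+H151 against YTcKO, 2 were lower with a pseudocount of 4, quantile normalization or the crossed block, 0 under total-count scaling, and 0 to 2 with 1 library left out. In YTcKO+H151 against Control, 1 was higher with a pseudocount of 4, the 2 groups alone, no variance trend, edgeR or the crossed block, 0 were lower with DESeq2, and 0 to 1 lower with 1 library left out; the causes were not tested.

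Of all genes, 2483 were higher and 1938 lower in YTcKO than in Control, with 1266 lower under the mean filter, 4054 under total-count scaling, 2987 under quantile normalization, 1217 with DESeq2, and 1165 to 2186 with 1 library left out. In YTcKO+H151 against YTcKO, 2643 were higher and 2923 lower, with 1676 higher under the mean filter and 4770 higher and 1930 lower under total-count scaling. In YTcKO+H151 against Control, 1570 were higher and 1562 lower, with 937 lower without the variance trend, and 951 to 1373 higher and 924 to 1499 lower with 1 library left out. The share of higher genes among those called in YTcKO against Control was 56.2% as deposited, 45.5% under median, 39.1% under quantile and 29.9% under total-count scaling, where the median of all genes lay at -0.16; in YTcKO+H151 against YTcKO it was 47.5%, 51.0%, 61.9% and 71.2%. With the replicate number as a block, 2430 genes were higher in YTcKO than in Control and no marker's call changed. Nothing in the labels says that the numbers pair libraries, and deviations of same-numbered libraries correlated at -0.14, -0.24 and 0.23 across genes in the 3 comparisons; with the YTcKO numbers crossed, 2891 genes were higher and 2431 lower in YTcKO than in Control. At 3 to 5 reads per YTcKO library, Pecam1, Emcn and Cdh5 can show large falls and no finer differences.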

Other observations

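Of the lymphatic endothelial markers, 4 of 7 were measured. The hyaluronan receptor Lyve1, also made by some macrophages, stood at 6.99 and 5.94 scaled CPM in YTcKO+H151, 0.435 and 0.596 in YTcKO, and 3.20 and 1.30 in Control, lower in YTcKO than in Control (-1.04 ± 0.25, adjusted p = 0.00473, limma) and higher in YTcKO+H151 than in YTcKO (2.30 ± 0.25, adjusted p = 1.77e-06, limma). The first call was lost without Control replicate 1 (adjusted p = 0.107) or YTcKO replicate 1 (adjusted p = 0.0615). Lyve1 was under 1 scaled CPM in both YTcKO libraries, so the limit set by the filter holds for both calls. The secreted glycoprotein Reln ran the other way, at 0.392 and 0.563 scaled CPM in YTcKO+H151, 5.75 and 7.67 in YTcKO, and 1.78 and 1.44 in Control. The same limit holds for the low YTcKO+H151 values of Reln. Prox1, the transcription factor that defines lymphatic endothelium, stood at 4.97 and 5.57, 4.96 and 4.26, and 4.70 and 2.81 scaled CPM in the same 3 groups and passed none of the 3 tests. Pdpn, which fibroblasts also make, passed none either.

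Of 10 pericyte and smooth muscle genes, 3 (Cspg4, Mcam and Notch3) rose and 0 fell in YTcKO against Control, and 0 rose and 7 fell in YTcKO+H151 against YTcKO. With 1 library left out, 1 to 3 rose in YTcKO against Control: Cspg4 was lost without Control replicate 1, YTcKO replicate 1 or YTcKO replicate 2 (adjusted p = 0.371, 0.237 and 0.148), and Notch3 without Control replicate 2 or YTcKO replicate 2 (adjusted p = 0.203 and 0.308). Under median, total-count and quantile scaling Cspg4 did not pass either (adjusted p = 0.117, 0.389 and 0.337). Mcam, an adhesion molecule of pericytes and endothelium, stood at 9.73 and 11.1 scaled CPM in YTcKO+H151, 34.9 and 36.1 in YTcKO, and 19.2 and 20.97 in Control. Of 8 melanocyte and Schwann cell genes, 5 rose and 2 (Dct and Mbp) fell in YTcKO against Control. Of the rises, that of S100b was lost under median and total-count scaling, without the variance trend and with DESeq2. Both falls were lost without YTcKO replicate 2 (adjusted p = 0.0804 and 0.149), that of Dct also without Control replicate 2 (adjusted p = 0.0686), and that of Mbp without Control replicate 1 or YTcKO replicate 1 (adjusted p = 0.277 and 0.103). The nerve growth factor receptor Ngfr stood at 15.9 and 14.8 scaled CPM in YTcKO+H151, 188 and 210.0 in YTcKO, and 51.6 and 50.01 in Control. Of 8 keratinocyte genes 1, Krt10, was measured and passed no test. Of the 10 fibroblast genes, 3 (Col1a1, Col1a2 and Lum) rose and 1 (Pdgfra) fell in YTcKO against Control, and the 3 rises were lost under total-count scaling (adjusted p = 0.114, 0.294 and 0.172), with Col1a1 of the other sign under quantile normalization. They were also lost without Control replicate 2 (adjusted p = 0.0512, 0.0876 and 0.155) and without YTcKO replicate 2 (adjusted p = 0.183, 0.198 and 0.114), and 0 to 4 of the list rose with 1 library left out.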
